A study of Mus musculus with 16 samples.

Results

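Ketone body metabolism in the mouse heart was followed through 4 genes, Bdh1, Oxct1, Acat1 and Slc16a1, taken by gene symbol from the 55573 genes of the count table as genes of ketone oxidation, synthesis and transport. All 4 were among the 16857 genes expressed highly enough to be tested. RNA came from the apex of the heart of 16 mice, 4 in each of 4 groups, collected 4 weeks after surgery. Every mouse carried an adeno-associated virus of serotype 9 (AAV9) in which the cardiac troponin T promoter (cTNT), active in cardiomyocytes, drove either GFP or the full-length mouse long noncoding RNA Cardinal (Gm12295). The virus had been given to wild-type pups on postnatal day 1. Sham or transverse aortic constriction (TAC) surgery, in which a suture narrows the aorta and the left ventricle pumps against a raised pressure, was performed on male mice. Each virus was thus studied after both operations, in groups named AAV9-GFP or AAV9-Cardinal, sham or TAC. The comparisons asked how pressure overload changed each gene with either virus, and whether Cardinal changed its level or its response to TAC. The labels do not say whether mice shared a litter or cage. The tests treat the 16 mice as independent and set each difference against the spread within groups.

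Ketone bodies, mainly beta-hydroxybutyrate and acetoacetate, are made in liver mitochondria from acetyl-CoA that fatty acid oxidation supplies, and are carried in the blood to other organs, the heart among them. Monocarboxylate transporters bring them into the cardiomyocyte. In the mitochondrion beta-hydroxybutyrate dehydrogenase (Bdh1) converts beta-hydroxybutyrate to acetoacetate, the CoA transferase Oxct1 (SCOT) activates acetoacetate with CoA taken from succinyl-CoA, and the thiolase Acat1 splits acetoacetyl-CoA into acetyl-CoA for the citric acid cycle.

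The libraries held between 16441997 and 21904589 counted reads each (median 21723766). Values are given as CPM, counts scaled to a fixed library size with edgeR's trimmed mean of M values (TMM). A gene was called changed where the Benjamini-Hochberg adjusted p of edgeR's quasi-likelihood test, adjusted over all 16857 genes, was under 0.05. The libraries went with their labels in Cardinal and in Nppa. Myh7, which the paper uses as a hypertrophy marker, overlapped between sham and TAC hearts with either virus (with AAV9-GFP, 3315 to 3363 and 2993 to 3786 CPM). Cardinal, counted from the virus and the endogenous gene together, lay between 18.3 and 93.9 CPM in AAV9-Cardinal hearts and between 3.42 and 7.24 CPM in AAV9-GFP hearts, and the stress peptide gene Nppa, 41.6 to 106 CPM in sham hearts, lay between 183 and 1396 CPM after TAC. In Cardinal a library stood apart from its group, AAV9-Cardinal TAC mouse 1, with 93.9 CPM against 18.3 to 20.6 CPM in the other AAV9-Cardinal TAC mice. The differences of the 4 genes and the called differences of other genes in its group are also given without it. Over all genes tested it was not alone. Its pairs with mice of its group gave a chi-square per degree of freedom of 13.2 to 14.3. Those of AAV9-GFP TAC mouse 1 gave 13.2 to 15.9 and those of AAV9-GFP sham mouse 4 gave 11.3 to 15.3. The 8 cardiomyocyte marker genes summed to between 30928 and 44942 CPM per mouse, the 4 hepatocyte markers to at most 0.372 CPM and the 4 adipocyte markers to at most 0.796 CPM. Fewer cells of a type and less RNA per cell cannot be told apart in such bulk samples.

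All 4 genes were abundant. Averaged over the 16 mice, Oxct1 was at 997 CPM (rank 66 of the genes tested), Acat1 at 403 CPM (rank 170), Slc16a1 at 222 CPM (rank 347) and Bdh1 at 144 CPM (rank 564). Per kilobase of exon, the scale on which genes can be compared with each other, AAV9-GFP sham hearts held 276 ± 9.96 CPM per kb of Oxct1 (SD, n = 4), 116 ± 3.24 of Acat1, 51.1 ± 8.20 of Slc16a1 and 32.1 ± 8.10 of Bdh1. The transferase was thus 2.37 times the thiolase and 8.59 times the dehydrogenase. On GRCm38, Bdh1 (ENSMUSG00000046598) lies on chromosome 16 from 31422280 to 31458901 on the plus strand, Oxct1 (ENSMUSG00000022186) on chromosome 15 from 4026383 to 4155344 on the plus strand, Acat1 (ENSMUSG00000032047) on chromosome 9 from 53580522 to 53610382 on the minus strand, and Slc16a1 (ENSMUSG00000032902) on chromosome 3 from 104638668 to 104658462 on the plus strand. The antisense gene Gm15743 overlaps 13.7% of the exon bases of Bdh1, and BC037032, on the opposite strand, overlaps 12.6% of those of Oxct1. Whether strand was used in counting is not given in the sources used here, so reads from these stretches cannot be assigned to either strand. Gm15743 was counted at 0.870 to 2.12 CPM and BC037032 at 2.17 to 5.91 CPM.

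Upstream sequence of 2 of the genes is shown, Bdh1 because it alone was called higher after TAC with both viruses, and Slc16a1 for contrast. RefSeq (GRCm38.p6) start sites were at hand for 3 of the 4 genes, and Acat1 is named only. The window is the 250 bases before the start site on the plus strand, 5′ to 3′, at chr16:31422047-31422296 for the upstream of the Bdh1 start sites and at chr3:104638414-104638663 for Slc16a1. Capitals mark matches, on either strand, to any of 5 short motifs, none of which lies within another. Nuclear receptors recognize AGGTCA as a half-site, basic helix-loop-helix factors recognize CACGTG (the E-box), and Sp1 family factors recognize GGGCGG. The core of sites for NFAT, a mediator of hypertrophic signaling, is GGAAA, and the promoter element TATAAA binds the general transcription machinery.
Bdh1: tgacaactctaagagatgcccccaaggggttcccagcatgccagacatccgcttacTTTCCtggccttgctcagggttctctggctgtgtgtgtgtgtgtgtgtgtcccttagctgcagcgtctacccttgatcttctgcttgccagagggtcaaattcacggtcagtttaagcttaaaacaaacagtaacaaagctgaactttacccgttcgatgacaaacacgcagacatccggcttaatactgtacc
Slc16a1: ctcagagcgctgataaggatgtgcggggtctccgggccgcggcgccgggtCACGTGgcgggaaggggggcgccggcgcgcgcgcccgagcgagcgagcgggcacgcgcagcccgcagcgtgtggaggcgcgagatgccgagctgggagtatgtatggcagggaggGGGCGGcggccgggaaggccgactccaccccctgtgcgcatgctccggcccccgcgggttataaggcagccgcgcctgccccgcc
The Bdh1 window had 1 match, to GGAAA, a short string found in 55.6% of the 32851 windows of the same length in the RefSeq table. The Slc16a1 window had 1 CACGTG, found in 6.02% of all windows, and 1 GGGCGG, found in 32.7%. AGGTCA (14.0% of all windows) and TATAAA (12.4%) matched in neither. The window before the other RefSeq start site of Bdh1, chr16:31428503-31428752, had no match to any of the 5 motifs. It lies within annotated exons and is not printed, and 3 of the 7 GENCODE transcripts of Bdh1 start within 200 bases of that site against 1 for the printed one. The Oxct1 window, which also lies within annotated exons and is not printed, had 3 matches to GGAAA and none to the other motifs. The printed windows also differed in composition, with 49.6% G and C for Bdh1 and 76.4% for Slc16a1. The matches are a description of these letters and were not tied to the values that follow.

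Slc16a1 encodes the monocarboxylate transporter MCT1, which carries ketone bodies, lactate and pyruvate across the cell membrane. It was at 185, 220, 227 and 273 CPM in the AAV9-GFP sham hearts and at 198, 192, 207 and 208 CPM in the AAV9-GFP TAC hearts. With AAV9-Cardinal it was at 215, 208, 232 and 209 CPM after sham surgery and at 237, 231, 241 and 270 CPM after TAC. The AAV9-GFP sham hearts spread over the whole range of the other groups, and 3 of 4 AAV9-Cardinal TAC hearts lay above every AAV9-Cardinal sham heart. No comparison of Slc16a1 was called. The log2 difference between TAC and sham was -0.17 (SE 0.09, adjusted p = 0.22, exact permutation p = 0.26) with AAV9-GFP and 0.18 (SE 0.09, adjusted p = 0.25, exact permutation p = 0.057) with AAV9-Cardinal, and its 95% intervals reached from -0.36 to 0.02 and from -0.01 to 0.37. Without AAV9-Cardinal TAC mouse 1 the second difference was 0.20 (adjusted p = 0.24). Without AAV9-GFP sham mouse 1, the lowest of its group, the AAV9-GFP difference was -0.26 with an adjusted p of 0.037 in edgeR. This was the only 1 of the 16 fits without a mouse that passed. Over those fits the difference ran from -0.26 to -0.067, with adjusted p-values up to 0.61.

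Bdh1, the dehydrogenase of the first oxidative step, rose after TAC with both viruses. It was at 138, 101, 97.6 and 163 CPM in AAV9-GFP sham hearts and at 196, 196, 174 and 168 CPM in AAV9-GFP TAC hearts. In AAV9-Cardinal hearts it was at 107, 100, 124 and 106 CPM after sham surgery and at 186, 145, 150 and 159 CPM after TAC. Every TAC heart lay above every sham heart of the same virus, although AAV9-GFP sham mouse 4, at 163 CPM, came within the range of the AAV9-Cardinal TAC hearts. The group means went from 125 ± 31.5 to 184 ± 14.6 CPM with AAV9-GFP (SD, n = 4), a 1.47-fold increase (95% interval 1.20 to 1.81), and from 109 ± 10.3 to 160 ± 18.3 CPM with AAV9-Cardinal, a 1.46-fold increase (95% interval 1.19 to 1.80). The log2 differences were 0.56 (SE 0.14, adjusted p = 0.012 in edgeR) and 0.55 (SE 0.14, adjusted p = 0.032 in edgeR). Exact two-sided permutation of the mice gave p = 0.029 for each, the smallest that 4 mice against 4 allow. The call in AAV9-Cardinal hearts was close to the threshold: it was lost when any of 6 mice was left out in turn (AAV9-Cardinal sham mice 1, 2 and 4 and TAC mice 1, 5 and 6), with adjusted p-values between 0.059 and 0.097 and differences between 0.47 and 0.58 (0.47 without TAC mouse 1). With mouse number as a block neither rise was called (0.54, adjusted p = 0.064, and 0.49, adjusted p = 0.29), while the AAV9-GFP call was kept with each mouse left out. AAV9-Cardinal TAC mice 5 and 6 and AAV9-GFP TAC mouse 7 share their number with no other mouse. The block fits these mice exactly, so they add nothing to its differences, and its AAV9-Cardinal TAC group rests on mice 1 and 4.

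Oxct1, which encodes the transferase that commits acetoacetate to oxidation and is scarce in liver, was at 979, 1028, 1007 and 1067 CPM in AAV9-GFP sham hearts and at 897, 909, 957 and 951 CPM in AAV9-GFP TAC hearts. With AAV9-Cardinal it was at 990, 972, 1056 and 1021 CPM after sham surgery and at 971, 1112, 1012 and 1023 CPM after TAC. The AAV9-GFP TAC hearts were the lowest 4 of all 16, while the other groups overlapped one another. The AAV9-GFP difference was -0.14 on the log2 scale (SE 0.05, exact permutation p = 0.029) and its adjusted p of 0.055 in edgeR missed the threshold. It passed in DESeq2 (adjusted p = 0.028) and without AAV9-Cardinal TAC mouse 1 (0.049) or mouse 4 (0.034), mice outside this comparison that share its fit. How leaving them out acted was not tested. Scaled by total counts instead of TMM, the difference changed sign to 0.02 (adjusted p = 0.68), on a scale where the median over all genes was 0.16. A change of scaling moves all genes by about the same amount, so the place of Oxct1 relative to the median gene is no further evidence. The direction of the Oxct1 difference in AAV9-GFP hearts thus depended on the scaling. With AAV9-Cardinal the difference was 0.03 (SE 0.05, adjusted p = 0.80, 95% interval -0.07 to 0.13), and 0.06 (adjusted p = 0.51) without mouse 1.

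Acat1, the mitochondrial thiolase, which also acts in isoleucine breakdown, fell after TAC in AAV9-GFP hearts. It was at 422, 439, 452 and 433 CPM in the sham hearts and at 366, 327, 354 and 354 CPM in the TAC hearts, with no overlap. The means were 437 ± 12.2 and 350 ± 16.3 CPM (SD, n = 4), a log2 difference of -0.32 (SE 0.05, adjusted p = 0.00074 in edgeR, exact permutation p = 0.029), or 1.25-fold lower. The call was kept under each of the 10 alternative settings and with each mouse left out, with -0.16 (adjusted p = 0.017) when scaled by total counts, where the median over all genes was 0.16. In AAV9-Cardinal hearts Acat1 was at 427, 416, 418 and 421 CPM after sham surgery and at 359, 427, 407 and 423 CPM after TAC. Mouse 1, the library that stood apart in Cardinal, was the lowest and within the AAV9-GFP TAC range. The other 3 AAV9-Cardinal TAC hearts lay above every AAV9-GFP TAC heart. The log2 difference was -0.06 (SE 0.05, adjusted p = 0.56, 95% interval -0.17 to 0.05), and -0.0036 (adjusted p = 0.98) without mouse 1.

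**Figure D1:**
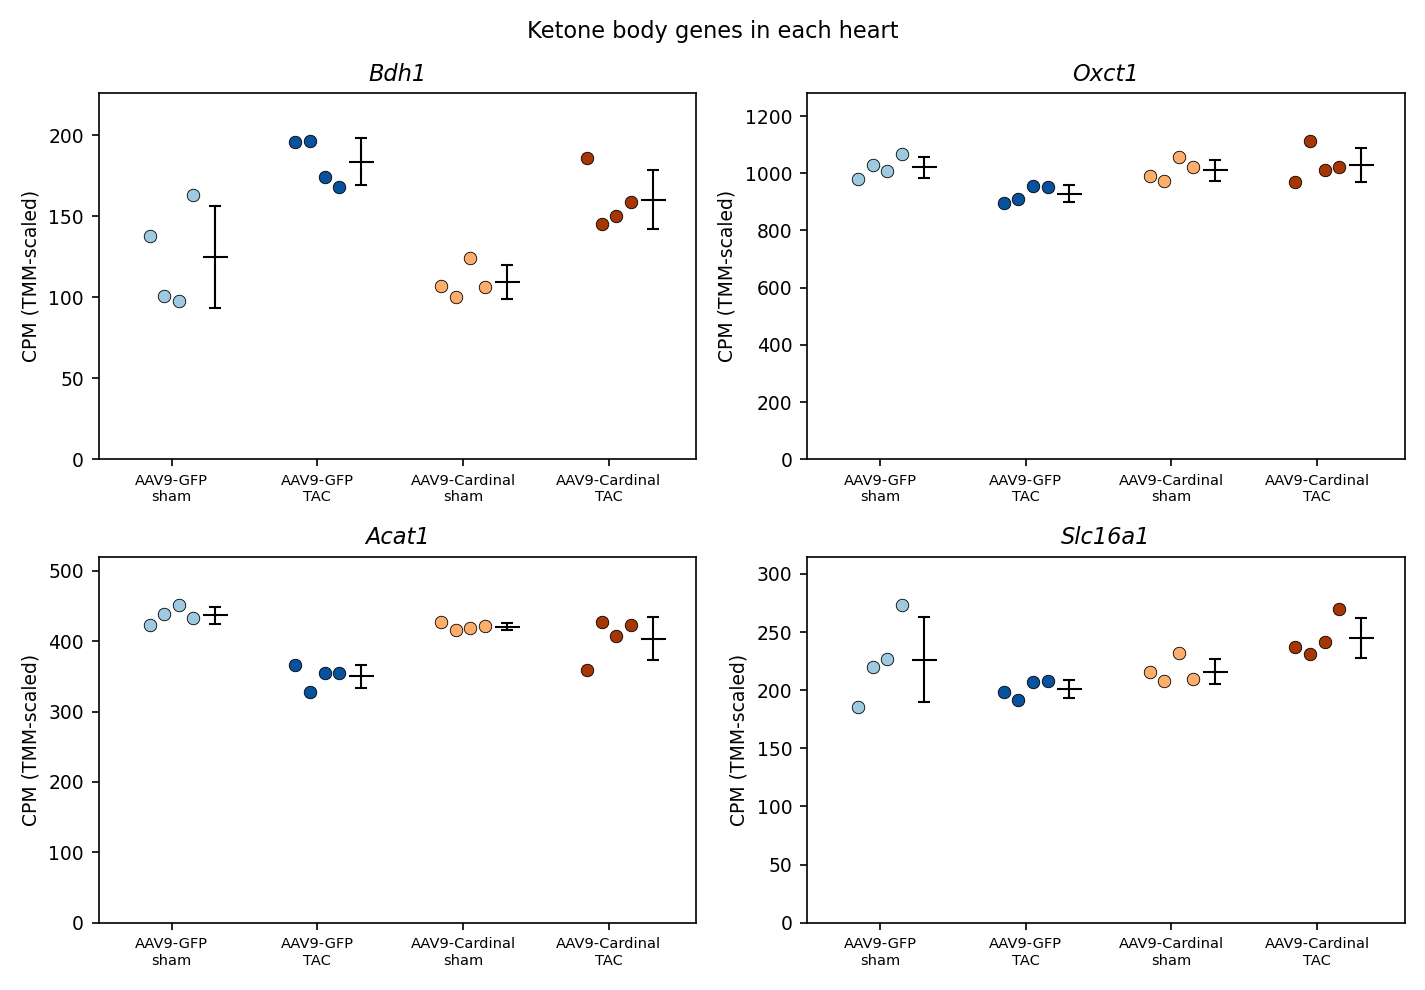
CPM (TMM-scaled, linear axes from 0) of the 4 ketone body genes in each of the 16 hearts by group, with the mean and SD (n = 4) beside the points. Bdh1 lies higher in TAC than in sham hearts with either virus, and the AAV9-GFP TAC hearts have the lowest Oxct1 values (897 to 957 CPM) and lie below both sham groups in Acat1 (327 to 366 CPM).

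Of the 4 genes, 1 (Bdh1) was called higher and 1 (Acat1) lower after TAC in AAV9-GFP hearts. Over all genes tested, 8.49% were called higher and 8.92% lower in that comparison. Groups without overlap were seen for 1 gene upward (10.1% of all genes) and 2 genes downward, Oxct1 and Acat1 (10.2% of all genes). In AAV9-Cardinal hearts 1 gene, Bdh1, was called higher (3.10% of all genes) and none was called lower (3.38% of all genes), and only Bdh1 had groups without overlap, upward (6.51% of all genes, against 7.21% downward). The median log2 difference of the 4 genes was -0.15 with AAV9-GFP and 0.10 with AAV9-Cardinal, beside medians of 0.01 and 0.00 over all genes tested. When scaled by total counts the median over all genes in AAV9-GFP hearts was 0.16, and 4220 genes were called higher and 681 lower, in place of 1431 higher and 1503 lower. Differences on that scale are to be read relative to this shift. AAV9-GFP TAC libraries had TMM factors between 1.05 and 1.09 and AAV9-GFP sham libraries between 0.940 and 0.977. Mitochondrially encoded genes took 30.3% to 31.0% of the counts in AAV9-GFP TAC hearts and 32.8% to 34.0% in AAV9-GFP sham hearts. The part of this shift in the differences of single genes was not tested.

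By mean level, both TAC groups stood above both sham groups for Bdh1, with AAV9-GFP above AAV9-Cardinal within each operation. For Acat1 both sham groups stood above both TAC groups, and the lowest was AAV9-GFP TAC. For Oxct1 and Slc16a1 alike, AAV9-Cardinal TAC was the highest group, AAV9-GFP TAC the lowest, and the sham groups lay between them. Neighboring groups overlapped at every step of these orders except the last step of Oxct1, where each AAV9-Cardinal sham heart lay above each AAV9-GFP TAC heart (exact permutation p = 0.029, unadjusted).

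In sham hearts no difference between the viruses was detected in any of the 4 genes. The log2 differences of AAV9-Cardinal against AAV9-GFP were -0.19 (SE 0.14) for Bdh1, -0.07 (SE 0.09) for Slc16a1, -0.05 (SE 0.05) for Acat1 and -0.01 (SE 0.05) for Oxct1, each with an adjusted p of 1 in edgeR. The widest interval, that of Bdh1, ran from -0.49 to 0.11. Calls were rare over the whole table, with 0.0119% of genes past the threshold (437 genes at an unadjusted p under 0.05).

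After TAC, Acat1, Oxct1 and Slc16a1 had higher means with AAV9-Cardinal than with AAV9-GFP and Bdh1 had a lower one, but none was called in edgeR, where 0.101% of all genes were (2528 genes at an unadjusted p under 0.05). The largest of these log2 differences was 0.28 for Slc16a1 (SE 0.09, adjusted p = 0.15), followed by 0.20 for Acat1 (SE 0.05, adjusted p = 0.096) and 0.15 for Oxct1 (SE 0.05, adjusted p = 0.15), while Bdh1 gave -0.20 (SE 0.14, adjusted p = 0.55). Every AAV9-Cardinal TAC heart lay above every AAV9-GFP TAC heart for Slc16a1 and Oxct1 (exact permutation p = 0.029 each), which was so for 3.58% of all genes, and 3 of 4 did for Acat1 (exact permutation p = 0.057). DESeq2, the other tool run, called Acat1 (adjusted p = 0.0077), Oxct1 (0.038) and Slc16a1 (0.044). It adjusted over 9010 genes here, against 16857 in edgeR, and called 428 of them where edgeR called 17. Without AAV9-Cardinal TAC mouse 1, edgeR called 535 genes, among them Acat1 (log2 difference 0.26, adjusted p = 0.0061) but neither Oxct1 (0.18, adjusted p = 0.055) nor Slc16a1 (0.30, adjusted p = 0.11), and Bdh1 was at -0.28 (adjusted p = 0.33). Scaled by total counts, where the median over all genes was -0.10, the differences of the 3 genes were 0.11, 0.06 and 0.19 for Acat1, Oxct1 and Slc16a1, and none was called.

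Whether the response to TAC differed with the virus was tested as an interaction. For Bdh1 the responses differed by -0.01 (95% interval -0.43 to 0.41, adjusted p = 0.997), a wide interval beside rises of 0.56 and 0.55. The response of Acat1 was 0.26 higher with AAV9-Cardinal (95% interval 0.10 to 0.41, adjusted p = 0.30), that of Oxct1 0.16 higher (0.02 to 0.30, adjusted p = 0.41) and that of Slc16a1 0.35 higher (0.08 to 0.62, adjusted p = 0.37), and none was called in edgeR (0.0119% of all genes were, and 1722 genes had an unadjusted p under 0.05). For Acat1 the adjusted p was 0.027 in DESeq2, which adjusted over 2476 genes here against 16857 in edgeR. In edgeR it was 0.036 without AAV9-Cardinal TAC mouse 1 (difference 0.31). Without that mouse the interactions of Bdh1, Oxct1 and Slc16a1 were -0.09 (adjusted p = 0.89), 0.19 (0.18) and 0.37 (0.21). The loss of Acat1 seen with AAV9-GFP and not called with AAV9-Cardinal was therefore not shown to differ between the viruses by the test used here.

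**Figure D2:**
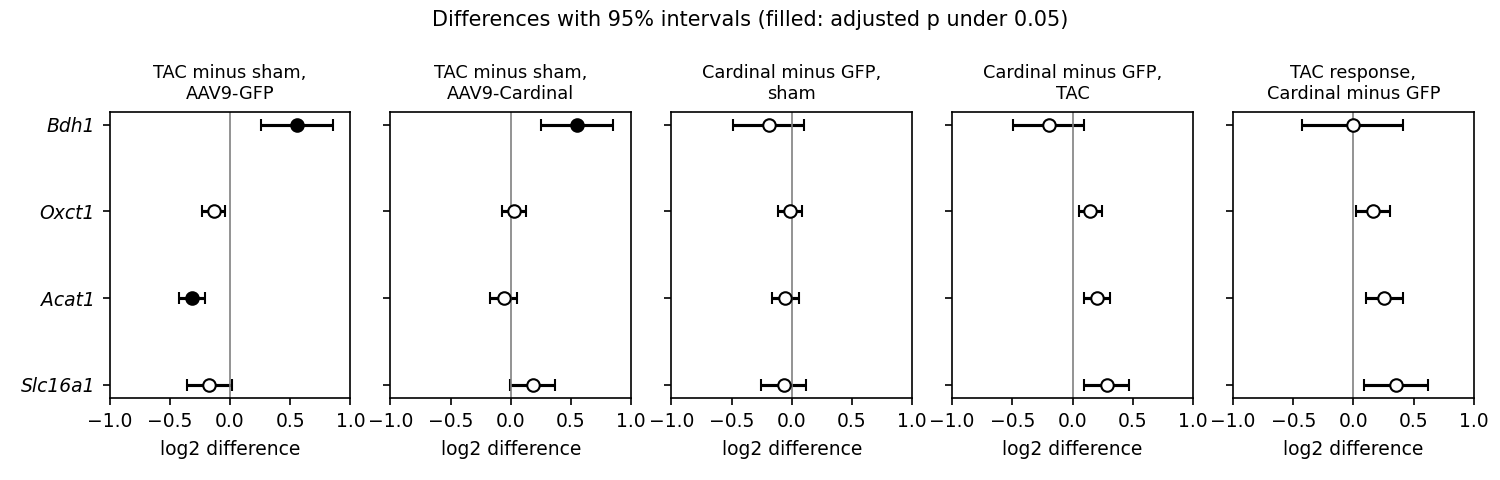
Log2 differences of the 4 genes with 95% intervals from edgeR in the 5 comparisons, where filled points have an adjusted p under 0.05. The filled points are Bdh1 after TAC with both viruses (0.56 and 0.55) and Acat1 after TAC with AAV9-GFP (-0.32), and no point is filled where the viruses are compared.

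The 3 enzymes are mitochondrial proteins, so their levels were set beside those of 8 nuclear genes of mitochondria that belong to other processes (Cs, Sdha, Ndufs1, Uqcrc1, Cox4i1, Atp5a1, Vdac1 and Tomm20) in the same library, a ratio that the scaling between libraries cannot move. After TAC, 7 of these 8 genes were called lower in AAV9-GFP hearts (Tomm20, at 0.13, was not called), with a median log2 difference of -0.32, and none of the 8 was called in AAV9-Cardinal hearts, where the median was -0.10. Over all genes tested, 8.92% were called lower with AAV9-GFP and 3.38% with AAV9-Cardinal. Relative to the mean log2 level of the 8 genes, Acat1 stood at -0.46 in AAV9-GFP sham, -0.49 in AAV9-GFP TAC, -0.47 in AAV9-Cardinal sham and -0.45 in AAV9-Cardinal TAC hearts. All 16 hearts lay between -0.53 and -0.40 on this scale, and the differences between TAC and sham means were -0.02 and 0.02. Bdh1 moved from -2.30 to -1.42 with AAV9-GFP and from -2.41 to -1.79 with AAV9-Cardinal, increases of 0.88 and 0.63. Oxct1 went from 0.76 to 0.92 and from 0.79 to 0.90, and Slc16a1 from -1.42 to -1.29 and from -1.43 to -1.17. Without mouse 1 the AAV9-Cardinal TAC means were -0.44 for Acat1, -1.90 for Bdh1 (an increase of 0.51), 0.89 for Oxct1 and -1.20 for Slc16a1. Unequal change between genes of the same heart is all these ratios show.

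**Figure D3:**
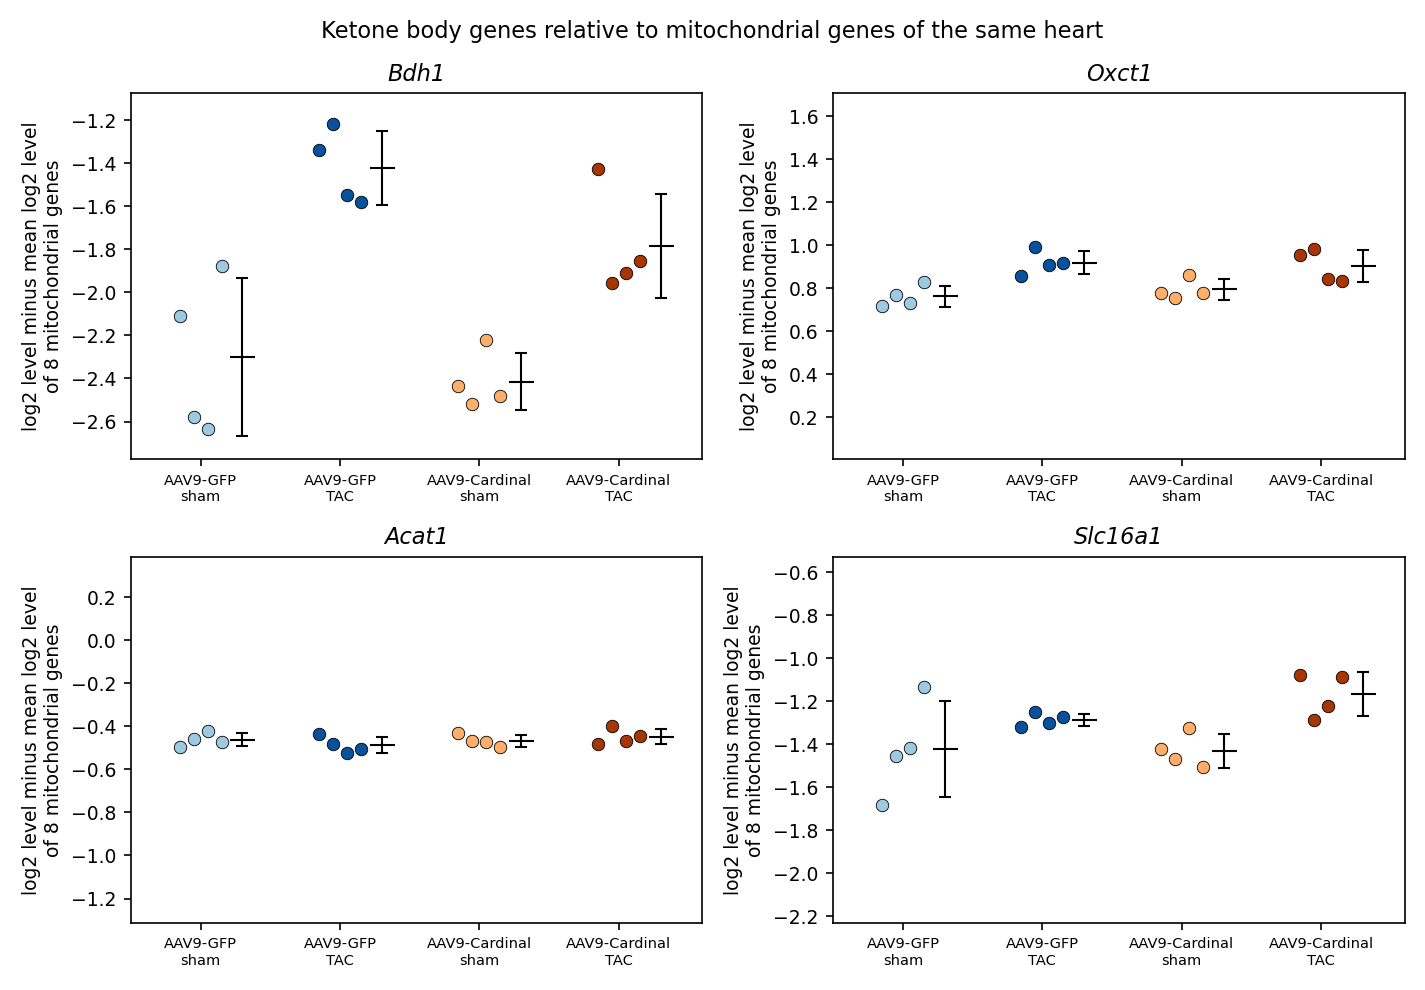
Log2 level of each of the 4 genes minus the mean log2 level of 8 nuclear genes of mitochondria in the same heart, for the 16 hearts by group with the mean and SD (n = 4), on axes of the same height. Acat1 keeps to a band from -0.53 to -0.40 in all hearts, whereas the group means of Bdh1 run from -2.41 to -1.42.

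Between the enzymes, the ratio of Oxct1 to Bdh1 per kilobase of exon was 8.97 ± 2.11 in AAV9-GFP sham and 5.35 ± 0.592 in AAV9-GFP TAC hearts (SD, n = 4), and 9.74 ± 0.570 and 6.84 ± 1.06 in the AAV9-Cardinal hearts. The ratio of Acat1 to Bdh1 went from 3.80 ± 0.998 to 1.99 ± 0.202 and from 4.01 ± 0.356 to 2.65 ± 0.454. In each case every TAC heart was below every sham heart of the same virus. Without mouse 1 the AAV9-Cardinal TAC means were 7.30 and 2.87.

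Some markers of other cells were called higher after TAC with AAV9-GFP, and fewer with AAV9-Cardinal. Beside the counts that follow, 8.49% of all genes tested were called higher and 8.92% lower with AAV9-GFP, and 3.10% and 3.38% with AAV9-Cardinal. In AAV9-GFP hearts 4 of 7 fibroblast markers were called higher and their summed level went from a range of 448 to 508 CPM to one of 719 to 938 CPM, while 6 of 8 cardiomyocyte markers were called lower and their sum went from 42468 to 43420 CPM to 30928 to 37272 CPM. In AAV9-Cardinal hearts 1 of 7 fibroblast markers was called higher (437 to 485 CPM in sham and 454 to 741 CPM in TAC hearts), and of the cardiomyocyte markers 1 was called higher and 1 lower (40607 to 44942 CPM and 37549 to 41702 CPM). Without mouse 1 the AAV9-Cardinal TAC sums lay between 454 and 482 CPM for the fibroblast markers and between 40833 and 41702 CPM for the cardiomyocyte markers. Of the endothelial, macrophage and smooth muscle and pericyte lists, 2 of 6, 1 of 6 and 3 of 5 genes were called higher in AAV9-GFP hearts and none in AAV9-Cardinal hearts, and none of the 5 erythroid genes was called in either. The part of these shifts in the ketone body genes was not tested.

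The pathway beyond the 4 genes was read from a list of 16 further genes of ketone synthesis, use, transport and sensing, of which 8 could be tested. In AAV9-GFP TAC hearts 2 of the 8 were called lower (Slc16a7 and Bsg) and none higher, and in AAV9-Cardinal TAC hearts 1 was called lower (Slc16a7) and none higher. Over all genes tested, 8.92% were called lower and 8.49% higher with AAV9-GFP, and 3.38% lower and 3.10% higher with AAV9-Cardinal. The median difference of the 8 was -0.06 and -0.02. None was called in a comparison of the viruses. The sensing receptors Hcar2 and Ffar3, the sodium-coupled transporters Slc5a8 and Slc5a12, and the testis transferase Oxct2b had no count in any mouse, and Oxct2a, Hmgcll1 and the cytosolic dehydrogenase Bdh2 stayed at or below 0.0466, 0.141 and 0.587 CPM. A count of 3, the least taken as detected, corresponds to between 0.126 and 0.195 CPM in these libraries.

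Among the transporters, Slc16a7 (MCT2) fell from 9.46, 5.04, 4.41 and 6.84 CPM to 3.34, 2.98, 3.76 and 3.17 CPM with AAV9-GFP (log2 difference -0.96, SE 0.24, adjusted p = 0.012 in edgeR). With AAV9-Cardinal it went from 5.24, 9.39, 5.19 and 5.26 CPM to 3.01, 3.71, 4.24 and 2.99 CPM (-0.85, SE 0.24, adjusted p = 0.049 in edgeR). The groups did not overlap with either virus, which was so downward for 10.2% of all genes with AAV9-GFP and 7.21% with AAV9-Cardinal. The AAV9-Cardinal call was lost in 14 of the 16 fits that left out a mouse, with adjusted p-values up to 0.17 (-0.78, adjusted p = 0.087, without mouse 1). Some of these left out an AAV9-GFP mouse, outside the comparison. There the difference stayed at -0.85 and the adjusted p in edgeR was 0.054 to 0.059. With mouse number as a block neither was called (adjusted p = 0.079 and 0.25). Bsg (basigin), the chaperone that brings MCT1 to the membrane, was at 575, 674, 694 and 689 CPM in AAV9-GFP sham hearts and at 472, 517, 589 and 538 CPM in AAV9-GFP TAC hearts, and 3 of 4 TAC hearts lay below every sham heart. Its difference was -0.32 (SE 0.08, adjusted p = 0.014 in edgeR), and -0.16 (adjusted p = 0.097) when scaled by total counts, beside the median of 0.16 on that scale. With AAV9-Cardinal it was -0.15 (SE 0.08, adjusted p = 0.31). Slc16a6, a transporter linked to ketone export from the liver, had the highest positive differences among the transporters, 0.29 (SE 0.12, adjusted p = 0.11) and 0.35 (SE 0.12, adjusted p = 0.11), which did not pass. Slc16a3, Slc16a8, Emb, Aacs and Acat2 were also tested and not called in either virus.

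**Figure D4:**
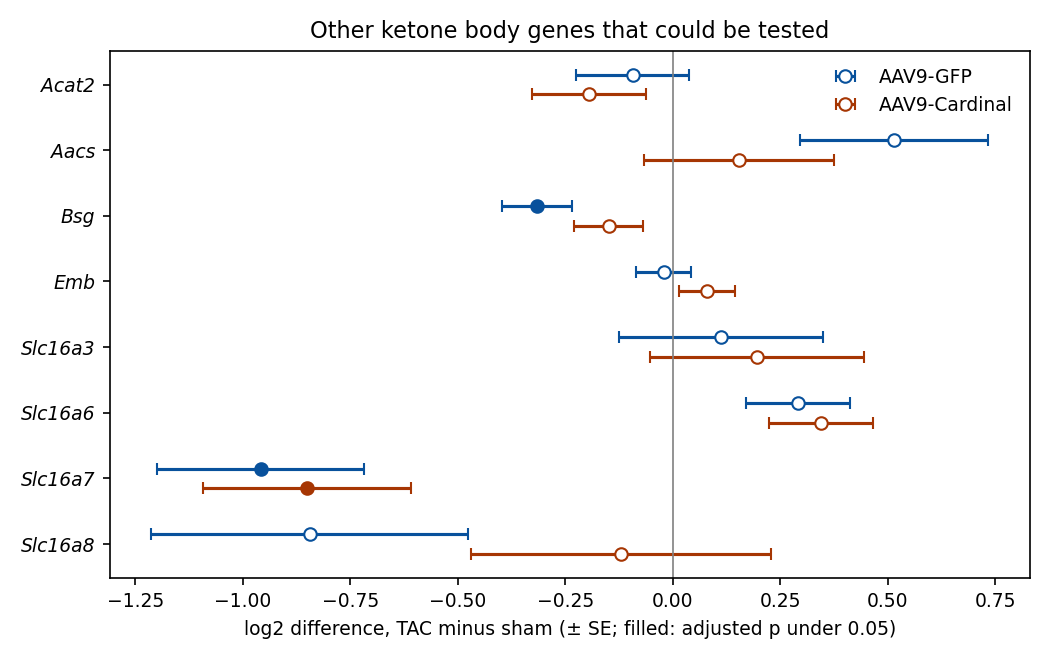
Log2 difference between TAC and sham hearts with its SE for the 8 further ketone body genes that could be tested, in AAV9-GFP and AAV9-Cardinal hearts, where filled points have an adjusted p under 0.05. Slc16a7 (-0.96 and -0.85) is filled for both viruses and Bsg (-0.32) for AAV9-GFP.

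Slc16a1 also carries lactate and pyruvate, so 4 genes of their use were followed. Ldhb, the heart form of lactate dehydrogenase, was called lower with both viruses. Its log2 difference was -0.43 (SE 0.06, adjusted p = 0.00022 in edgeR) with AAV9-GFP and -0.22 (SE 0.06, adjusted p = 0.041 in edgeR) with AAV9-Cardinal. The second call was lost in 11 of 16 fits that left out a mouse (-0.16, adjusted p = 0.053, without mouse 1). Some of these left out an AAV9-GFP mouse, with -0.22 and an adjusted p of 0.051 to 0.053 in edgeR. It was also lost with mouse number as a block (adjusted p = 0.14). Mpc2, a subunit of the mitochondrial pyruvate carrier, was called lower with AAV9-GFP (-0.21, SE 0.05, adjusted p = 0.013 in edgeR) and not with AAV9-Cardinal (0.03, SE 0.05, adjusted p = 0.83). The AAV9-GFP call was lost with mouse number as a block (adjusted p = 0.054), without AAV9-GFP TAC mouse 3 (0.052) and when scaled by total counts (-0.05, adjusted p = 0.40). Ldha and Mpc1 were not called. Of 4 regulators of mitochondrial fuel genes, Ppara, a nuclear receptor that acts on fatty acid oxidation genes, was at 36.6, 36.0, 33.7 and 32.1 CPM in AAV9-GFP sham and at 25.2, 16.1, 27.2 and 24.6 CPM in AAV9-GFP TAC hearts (-0.57, SE 0.13, adjusted p = 0.0064 in edgeR). With AAV9-Cardinal its difference was -0.29 (SE 0.13, adjusted p = 0.20). Ppargc1a, Esrra and Sirt3 were not called with either virus.

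The genes whose pattern over the 16 mice was most like that of each member were found among 12023 protein-coding genes (mean level 1 CPM or more), by the root mean square difference of log2 CPM after centering each gene on its own mean. For Acat1 they were Atp5a1, Cs and Mdh1, at distances of 0.04 on the log2 scale, against a spread of Acat1 itself of 0.14. Mdh1 is the cytosolic malate dehydrogenase, and Atp5a1 (a subunit of ATP synthase) and Cs (citrate synthase) are also among the 8 genes of the ratio above. For Bdh1 they were Hacd1, Fuca2 and Pdlim5 (0.14, 0.15 and 0.17, own spread 0.35), for Oxct1 Cd164, Arl8b and Ktn1 (0.04, 0.04 and 0.05, own spread 0.08) and for Slc16a1 Herc4, Zkscan3 and Trappc13 (0.08, 0.09 and 0.09, own spread 0.15).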

How the data were processed

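RNA-Seq of poly(A)-selected RNA from the apex of 16 mouse hearts (single-end 50-base reads) was analysed. The table the authors deposited gives counts of reads, not normalized, for each Ensembl gene in each mouse. The submitters' processing notes name FastQC, HISAT2 2.1.0, edgeR 3.26.1 and GRCm38, and the counting program, annotation, use of strand and treatment of reads with several matches are not given in the sources used here. Genes were named with GENCODE M21 (55480 of 55573). All 16 columns were used.

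They were fitted by edgeR 4.0.16 under R 4.3.3 (TMM, the filter on expression for the 4 groups, quasi-likelihood fit of all 16 mice, contrasts) and a Benjamini-Hochberg adjusted p under 0.05 over 16857 genes. CPM and log2 CPM (prior count 2) used TMM-scaled library sizes. Single genes were also compared by exact two-sided permutation of log2 CPM (70 labelings, smallest p 0.029) with scipy 1.17.1. Levels per kb used the union of exons. The method was tested on simulated data. Pairs of mice of a group differed by more than sampling noise (chi-square per degree of freedom 5.32 to 15.9). Floors and counts cover counting error only. The genes and lists were chosen with earlier results of these data known. Some listed genes are not reported here and were left out of list counts. Named were the 4 genes, the listed genes and, for each of the 4, the 3 genes of most similar pattern. BC037032 and Gm15743 were added after the annotation was seen. Alternatives were DESeq2 1.42.0 as a test and for size factors, no filter, a mean of at least 1 CPM, only the mice compared, a robust spread, mitochondrially encoded genes left out, mouse number as a block, a GC offset, each mouse left out, longest transcript lengths and, chosen after seeing the data, scaling by total counts.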

Additional observations from a re-analysis of the deposited data

Results flagged for a closer look

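Of 116 groups of 4 mice examined for a mouse apart from the others (Dixon's test, which chance flags in about 5% of groups, here 5.8), 7 were flagged, none of them in Bdh1, Oxct1, Acat1 or Slc16a1. Slc16a7 was at 9.39 CPM in AAV9-Cardinal sham mouse 2 and at 5.19 to 5.26 CPM in the others of its group. Bsg was at 575 CPM in AAV9-GFP sham mouse 1 and at 674 to 694 CPM in the others. Esrra was at 75.6 CPM in AAV9-Cardinal TAC mouse 6 and at 63.3 to 65.0 CPM in the others. Cox4i1 was at 513 CPM in AAV9-GFP TAC mouse 3 (571 to 582 CPM in the others), Uqcrc1 at 657 CPM in AAV9-GFP sham mouse 2 (597 to 607 CPM) and Atp5a1 at 2348 CPM in AAV9-Cardinal TAC mouse 1 (2684 to 2722 CPM). The library total was 16441997 in AAV9-Cardinal sham mouse 4 and 21603910 to 21786630 in the others. Cardinal itself was not among the groups examined, so its 93.9 CPM in AAV9-Cardinal TAC mouse 1 (18.3 to 20.6 CPM in the others) is not in these counts.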

How the results depend on the processing

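Over 4 genes and 5 comparisons, 184 of 196 alternative fits and 298 of 320 fits without a mouse kept direction and side of the threshold. Only Bdh1 after TAC with both viruses and Acat1 with AAV9-GFP were called, so these totals mostly count results that stayed uncalled. Without a mouse, Bdh1 with AAV9-Cardinal kept its call in 10 of 16 fits, and Bdh1 and Acat1 with AAV9-GFP in all 16. Where direction or side changed, the cause was not tested. Without a filter, Bdh1 with AAV9-Cardinal was 0.55 (adjusted p = 0.054) and its interaction 0.0050, and with a GC offset the interaction was 0.022. DESeq2 called Oxct1 (-0.14) in AAV9-GFP hearts, Acat1 (0.21), Oxct1 (0.15) and Slc16a1 (0.29) between viruses after TAC and the interaction of Acat1 (0.26). Scaling by total counts gave 0.024 for Oxct1 after TAC with AAV9-GFP and 0.017 between viruses in sham hearts, 4901 genes in AAV9-GFP hearts (2934 with TMM) and 76 between viruses after TAC (17 with TMM).

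Deviations from the group means correlated at 0.07 to 0.21 in the 6 pairs of mice numbered 1 (4 pairs over 0.1). They correlated at -0.04 to 0.09 in the 10 other same-numbered pairs. The 80 pairs of unlike number ran from -0.19 to 0.22 (median -0.01), and 5 of 13 mice correlated best with their own number. Pairing by number was thus not shown for all mice, and mouse number as a block is an alternative. Mice whose number no other mouse has (AAV9-Cardinal TAC 5 and 6 and AAV9-GFP TAC 7) add nothing to the differences under the block. An effect of pairing on the calls cannot be told apart from the loss of these mice. Under the block Bdh1 was 0.54 (adjusted p = 0.064) and 0.49 (adjusted p = 0.29) after TAC with AAV9-GFP and AAV9-Cardinal, and calls after TAC with AAV9-Cardinal went from 1092 to 31, of further ketone genes from 2 to 1 (AAV9-GFP) and from 1 to 0 (AAV9-Cardinal), and between viruses to 1 (sham), 0 (TAC) and 1 (interaction).

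Genes called after TAC with AAV9-Cardinal were 615 with no filter. Further ketone genes called there were 0 with no filter, with only the mice compared and with scaling by total counts. Between viruses, sham calls were 4 in DESeq2 and 1 with a mean of at least 1 CPM. TAC calls were 428 in DESeq2 and 3 with no filter and with only the mice compared. They were 37 with a mean of at least 1 CPM and 30 without mitochondrially encoded genes. Interaction calls were 137 in DESeq2 and 1 with a mean of at least 1 CPM. DESeq2 adjusted over 16852 genes for sham, 9010 for TAC and 2476 for the interaction.

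Leaving out each mouse gave 0.47 to 0.62 for Bdh1 after TAC with AAV9-Cardinal and -0.16 to 0.095 for its interaction, -0.16 to -0.11 for Oxct1 with AAV9-GFP, -0.011 to 0.058 with AAV9-Cardinal and -0.037 to 0.0072 in sham hearts, 0.18 to 0.26 for Acat1 between viruses after TAC and 0.23 to 0.31 for its interaction, and -0.26 to -0.067 for Slc16a1 with AAV9-GFP and -0.15 to 0.036 in sham hearts. Calls ranged from 384 to 1436 after TAC with AAV9-Cardinal (further ketone genes 0 to 1), from 1 to 3 in sham hearts, from 0 to 535 between viruses after TAC and from 2 to 79 for the interaction. The levels per kb of Oxct1 and Acat1 in AAV9-GFP sham hearts were 289 and 128 with the longest transcript. With 4 mice a group, the 95% interval of Bdh1 between viruses after TAC ran from -0.49 to 0.10, and any value in that range was compatible with these data.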
